A study of Mus musculus with 9 samples.

Results

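The genes described here are 10 members of the Bcl2 family, the proteins that set whether a cell survives or dies through its mitochondria. They were taken as the rows of the deposited expression table whose gene symbol is one of the 10 names, and they make up 10 of the 18049 genes listed. By role they are 3 survival genes (Bcl2, Bcl2l1 and Mcl1), 2 effector genes (Bax and Bak1) and 5 BH3-only genes (Bcl2l11, Bid, Bad, Bbc3 and Pmaip1). RNA was sequenced from macrophages grown in RPMI medium from bone marrow of C57BL/6 mice aged 8 weeks. The 3 groups of 3 libraries each were cells given medium only (control), cells given 15d-PGJ2 at 1 µM, and cells given 15d-PGJ2-PC at 1 µM, all for 6 h. 15d-PGJ2 is a cyclopentenone prostaglandin, and the labels do not spell out what PC stands for. The control is named as medium, with no vehicle stated. Whether the 3 libraries of a group had their own mice or dishes is not said in the labels, and each p-value therefore reflects just how far these libraries lie apart, a spread that could be technical.

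Survival members of the family (Bcl-2, Bcl-xL from Bcl2l1, and Mcl-1) hold the effectors Bax and Bak in check at the outer mitochondrial membrane. BH3-only proteins sense stress and either block the survival proteins or activate the effectors, which then open pores in the membrane and release cytochrome c to start caspase activation. Mcl-1 is a short-lived protein that many myeloid cells depend on, and Noxa, the product of Pmaip1, binds chiefly to Mcl-1.

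Each library held an estimated 5320000 to 5420000 reads, read off the value that 1 read takes in short genes with low counts. FPKM, the unit throughout, is the number of fragments of a gene scaled to its transcript length and to the library's mapped fragments. At that depth the members rested on about 18 to 48 reads per library for Bcl2, 85 to 235 for Pmaip1, 110 to 153 for Bad and 2295 to 5020 for Mcl1. All 10 macrophage markers were above 1 FPKM in every group, and their summed level was 7055 to 7306 FPKM in controls, 5380 to 5737 with 15d-PGJ2 and 6291 to 6445 with 15d-PGJ2-PC. Skin, stromal and erythroid markers summed higher in all controls than in all treated libraries. So did the macrophage markers above and the neutrophil, B cell, dendritic and osteoclast markers, whose sums are given under the other observations. The 7 listed skin markers summed to 20.6 to 25.2 FPKM in controls and 0.51 to 1.37 in treated libraries, where 6 of the 7 were at 0 in every library. The 7 stromal markers summed to 36.4 to 43.3 FPKM in controls and to 8.47 to 10.5 and 7.63 to 8.51 under 15d-PGJ2 and 15d-PGJ2-PC, and 4 erythroid markers to 19.6 to 31.8 FPKM in controls and 0 to 0.91 in treated libraries. Their part in the differences between treated and control libraries was not tested. Between the compounds, skin sums overlapped (0.68 to 1.03 FPKM with 15d-PGJ2 and 0.51 to 1.37 with 15d-PGJ2-PC). In bulk RNA, fewer cells of a type and less RNA per cell cannot be told apart.

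The promoter sequences of 9 members were found in RefSeq (build GRCm38.p6, from 250 bases before to 50 after a start), as 15 windows, since Bcl2l11, Bcl2l1, Bbc3 and Bad have several starts. They were searched on both strands for 7 short motifs of stress and cytokine factors. The antioxidant response element core TGACNNNGC lay in 1 member window, of Bcl2l1, against 12.4% of all 32851 windows. That window, at 152828440 to 152828739, belongs to a start inside the gene. Of the Bcl2l1 windows it lies farthest from the gene's 5′ end at 152833803, and the others held no match. Positions below count from the start that belongs to the matching window. The heat shock element core GAANNTTC lay in 1 member window, of Bad, against 7.86% of all windows. None of the 15 windows held the gamma-activated site TTCNNNGAA (8.3% of all windows), the cyclic AMP response element TGACGTCA (1.79%), the CHOP-ATF4 element TGATGNAAT (0.965%), the interferon-stimulated response element (3.44%) or the NF-kB site (1.47%). Bcl2l1 fell with both compounds and Bad passed in no comparison, and a link between a match and a level was not tested. The matches are shown 5′ to 3′ on the strand of the gene, with the matching letters in capitals (in Bcl2l1 the motif reads on the opposite strand).
Bcl2l1, chr2:152828593-152828631, minus strand, match starting at -127 from the start: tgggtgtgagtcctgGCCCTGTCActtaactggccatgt
Bad, chr19:6941816-6941853, plus strand, match starting at -30 from the start: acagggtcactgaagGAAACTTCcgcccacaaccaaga
A match is a run of letters and not a shown binding site.

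With 15d-PGJ2, 9 of the 10 members differed from control: Pmaip1, Bax, Bid, Bcl2l11 and Bcl2 rose and Mcl1, Bcl2l1, Bbc3 and Bak1 fell. With 15d-PGJ2-PC, 4 members differed from control, of which Pmaip1 and Bax rose and Mcl1 and Bcl2l1 fell. The test was limma's moderated test on log2(FPKM + 1) over the 11309 genes that reached 1 FPKM in 3 or more libraries, with Benjamini-Hochberg adjustment over all of them and a threshold of 0.05; every adjusted p here comes from it. All 10 members passed that filter, Bcl2 only through the treated libraries, so its call supports nothing further. Of all tested genes, 47.2% were called with 15d-PGJ2 (22.2% higher and 25% lower) and 27.8% with 15d-PGJ2-PC (13.8% higher and 14.1% lower). The share of members called was therefore above that of all genes with 15d-PGJ2 and nearer to it with 15d-PGJ2-PC. With 15d-PGJ2 the count of members called ran from 6 to 9 when 1 library was left out. The 9 called and the 8 below that did not overlap with 15d-PGJ2 both include Bcl2. The members were also chosen with earlier results of these data known. A set of 10 genes is besides too small, so the shares are given as a description and support nothing about the family. The median log2 fold change of the 10 members was 0.05 with 15d-PGJ2 and -0.06 with 15d-PGJ2-PC, against -0.02 and -0.0038 over all tested genes. A test for any difference among the 3 groups called 7 members (all but Bid, Bcl2 and Bad), where 44.3% of all genes were called. Libraries of both groups did not overlap for 8 members with 15d-PGJ2 and 7 with 15d-PGJ2-PC, where 55.1% and 41.8% of all genes did not. Both comparisons with control use the same 3 control libraries.

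Mcl1 encodes a survival protein and was the most abundant member per transcript length in controls (Entrez 17210, GRCm38 chromosome 3, 95656944 to 95663179). Its level was 271.31, 269.68 and 265.61 FPKM in the 3 control libraries, 131.52, 126.54 and 125.19 with 15d-PGJ2, and 184.04, 174.07 and 179.80 with 15d-PGJ2-PC. The 3 groups did not overlap, and the 15d-PGJ2-PC libraries lay between the others. Against control, Mcl1 fell by 52.5% with 15d-PGJ2 (log2 fold change -1.07, SE 0.03, adjusted p = 3.34e-09). It fell by 33.3% with 15d-PGJ2-PC (log2 fold change -0.58, SE 0.03, adjusted p = 8.25e-07). Of all tested genes, 3.42% were called lower by at least 2-fold with 15d-PGJ2, and by the size of its p Mcl1 ranked 41 among the 11309.

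Bcl2l1 encodes Bcl-xL (Entrez 12048, chromosome 2, 152758732 to 152833803). It was at 27.55, 31.63 and 30.99 FPKM in the control libraries, 18.02, 17.27 and 16.63 under 15d-PGJ2, and 21.58, 21.71 and 20.48 under 15d-PGJ2-PC. As with Mcl1, the control libraries were highest, the 15d-PGJ2 libraries lowest, and no groups overlapped. Bcl2l1 fell by 42.4% with 15d-PGJ2 (log2 fold change -0.76, SE 0.06, adjusted p = 2.75e-06) and by 29.3% with 15d-PGJ2-PC (-0.48, SE 0.06, adjusted p = 0.000219). The table gives 1 value per gene over 4 RefSeq transcripts, so splice forms of Bcl2l1 cannot be told apart.

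Bcl2 itself, the founding member (Entrez 12043, chromosome 1, 106538176 to 106714290), was near the floor of the measurement. It was at 0.68, 1.26 and 0.93 FPKM in the control libraries, 1.51, 1.42 and 1.77 under 15d-PGJ2, and 1.34, 1.15 and 1.35 under 15d-PGJ2-PC. The 15d-PGJ2 libraries all lay above the controls, while the 15d-PGJ2-PC libraries overlapped them. Bcl2 rose with 15d-PGJ2 by 0.40 on the log2 scale (95% interval 0.08 to 0.72, adjusted p = 0.0416), but 9 of 17 alternatives ended that call, with an adjusted p of up to 0.149 without control replicate 1. The 9 are the replicate block (0.0657), leaving out control replicate 1, and the libraries of the contrast alone (0.069), and leaving out control replicate 3 (0.0916), 15d-PGJ2 replicate 1 (0.0738), 2 (0.061) or 3 (0.128), or 15d-PGJ2-PC replicate 1 or 3. With 15d-PGJ2-PC it did not pass (log2 fold change 0.23, 95% interval -0.09 to 0.55, adjusted p = 0.278). Bcl2 met the filter on low values only through the treated libraries, with 1 control library at 1 FPKM or more. Its call with 15d-PGJ2 therefore supports nothing further.

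**Figure D1:**
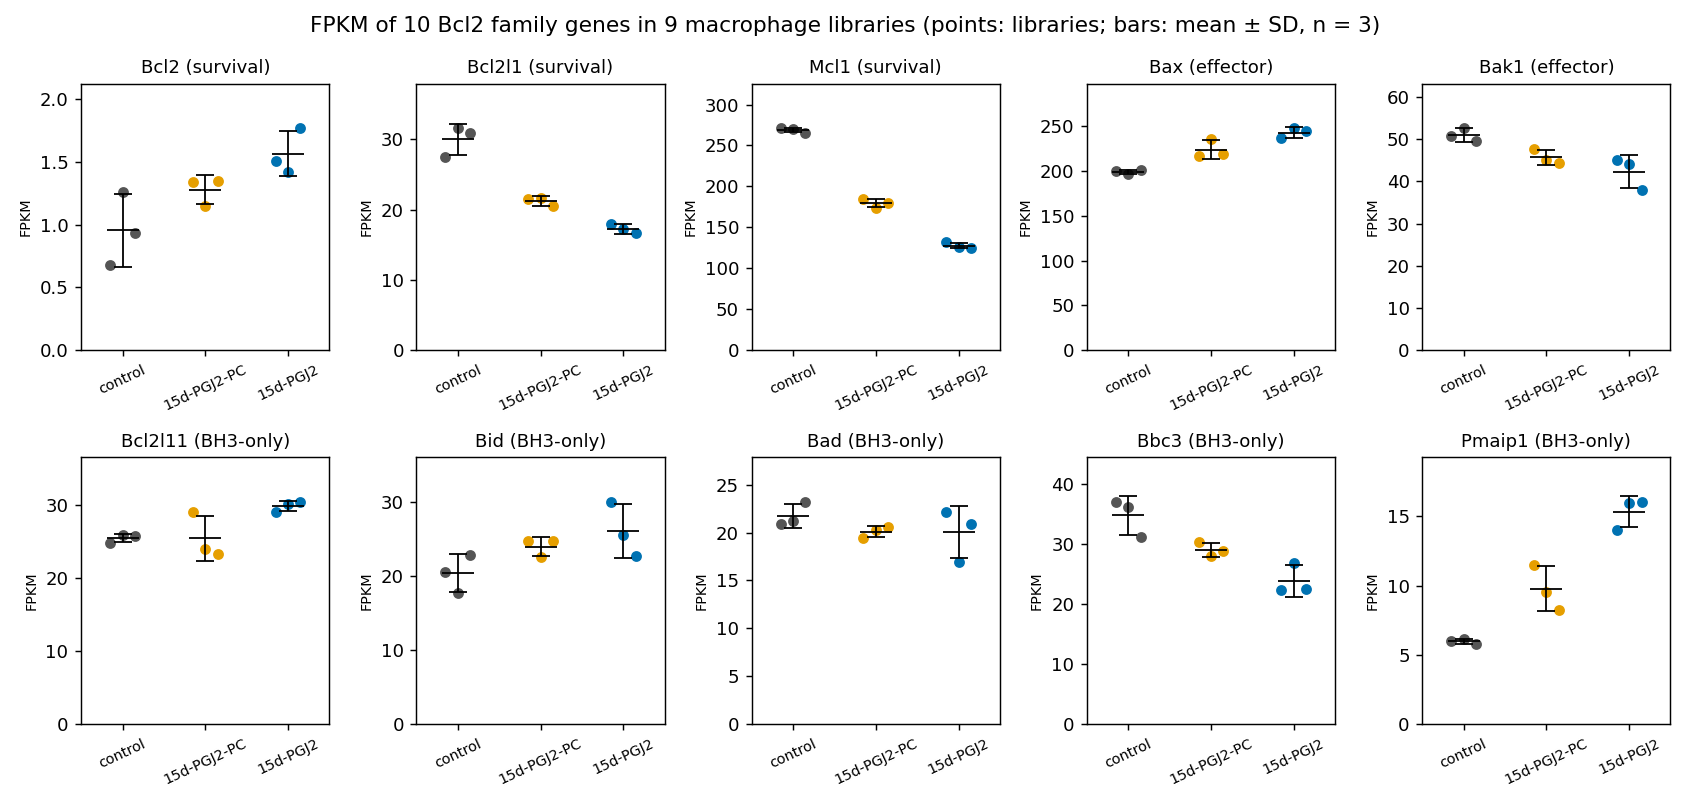
FPKM of each of the 10 genes (vertical axis, from 0, own scale per panel) in the control, 15d-PGJ2-PC and 15d-PGJ2 groups; points are libraries, the wide mark is the mean and the bar the SD of 3. Mcl1 and Bcl2l1 step down and Pmaip1 steps up from control through 15d-PGJ2-PC to 15d-PGJ2 with no overlap, while the Bid groups overlap, and Bad with 15d-PGJ2 overlaps both other groups.

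The effectors moved apart with 15d-PGJ2. Bax, which forms pores once it moves from the cytosol to mitochondria (Entrez 12028, chromosome 7, 45461695 to 45466903), was at 199.76, 196.74 and 201.09 FPKM in the control libraries, 236.41, 248.01 and 244.21 under 15d-PGJ2, and 217.32, 235.81 and 218.64 under 15d-PGJ2-PC. All treated libraries lay above all controls. Bax rose by 0.28 on the log2 scale with 15d-PGJ2 (SE 0.04, adjusted p = 0.000103) and by 0.17 with 15d-PGJ2-PC (SE 0.04, adjusted p = 0.007). Bak1, whose protein sits in the mitochondrial membrane from the start (Entrez 12018, chromosome 17, 27019812 to 27028627), was at 50.77, 52.65 and 49.54 FPKM in the control libraries, 45.00, 44.14 and 37.86 under 15d-PGJ2, and 47.57, 45.19 and 44.26 under 15d-PGJ2-PC. The controls were again set apart from all treated libraries, this time above them. Bak1 fell by 0.27 with 15d-PGJ2 (SE 0.06, adjusted p = 0.00608). With 15d-PGJ2-PC it did not pass (-0.16, 95% interval -0.30 to -0.01, adjusted p = 0.102), though it did in the libraries of the contrast alone (0.0424) and without 15d-PGJ2 replicate 3 (0.0324).

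Among BH3-only genes, Pmaip1 changed most. It encodes Noxa (Entrez 58801, chromosome 18, 66458604 to 66465558) and was at 5.97, 6.15 and 5.76 FPKM in the control libraries, 14.04, 15.95 and 16.06 under 15d-PGJ2, and 11.50, 9.57 and 8.24 under 15d-PGJ2-PC. No groups overlapped. Mean FPKM was 2.58-fold higher than control with 15d-PGJ2 (log2 fold change 1.23, SE 0.10, adjusted p = 3.54e-06) and 1.64-fold higher with 15d-PGJ2-PC (0.62, SE 0.10, adjusted p = 0.00127). With 15d-PGJ2, 2.75% of all genes were called higher by at least 2-fold on the fitted scale.

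Bbc3 encodes Puma, which blocks all the survival proteins (Entrez 170770, chromosome 7, 16308398 to 16318334), and it went the other way. It was at 37.01, 36.18 and 31.09 FPKM in the control libraries, 22.24, 26.88 and 22.40 under 15d-PGJ2, and 30.30, 28.01 and 28.75 under 15d-PGJ2-PC. The groups did not overlap, and the 15d-PGJ2-PC libraries were in the middle. Bbc3 fell by 31.4% with 15d-PGJ2 (log2 fold change -0.53, SE 0.08, adjusted p = 0.000441). With 15d-PGJ2-PC the log2 fold change was -0.25 (95% interval -0.44 to -0.06, adjusted p = 0.0511), just outside the threshold, and 6 of 18 alternatives called it, with an adjusted p from 0.0173 to 0.16 over the 18. Leaving out control replicate 3 (0.0173) or 15d-PGJ2 replicate 2 (0.0239) was among the 6.

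The remaining BH3-only genes moved less. Bcl2l11 encodes Bim, an activator of Bax and Bak (Entrez 12125, chromosome 2, 128126038 to 128162547). It was at 24.84, 25.91 and 25.74 FPKM in the control libraries, 29.10, 30.17 and 30.43 under 15d-PGJ2, and 29.00, 23.95 and 23.31 under 15d-PGJ2-PC. Replicate 1 of 15d-PGJ2-PC stood near the 15d-PGJ2 libraries and the other two lay below every control. Bcl2l11 rose by 0.22 with 15d-PGJ2 (95% interval 0.06 to 0.39, adjusted p = 0.0304). That call was lost without control replicate 1, 2 or 3 (0.086, 0.0564 and 0.0575), without 15d-PGJ2 replicate 2 or 3 (0.0743 and 0.0812), with no filter (0.0515) and with no trend in the prior variance (0.0504). With 15d-PGJ2-PC it was at -0.01 (95% interval -0.18 to 0.15, adjusted p = 0.939). Bid encodes a protein that caspase 8 cleaves to carry death receptor signals to mitochondria (Entrez 12122, chromosome 6, 120893119 to 120917062). It was at 20.56, 17.68 and 22.87 FPKM in the control libraries, 30.01, 25.49 and 22.67 under 15d-PGJ2, and 24.72, 22.51 and 24.68 under 15d-PGJ2-PC. The groups overlapped, since control replicate 3 lay above 15d-PGJ2 replicate 3. Bid rose by 0.34 with 15d-PGJ2 (95% interval 0.10 to 0.58, adjusted p = 0.0242). That call was lost without control replicate 1 or 2 (0.0506 and 0.0928), without 15d-PGJ2 replicate 1 (0.0884) and with no filter (0.0524). With 15d-PGJ2-PC Bid did not pass (0.23, 95% interval -0.01 to 0.47, adjusted p = 0.146). Bad, whose product is held inactive by phosphorylation (Entrez 12015, chromosome 19, 6941861 to 6951905), passed in neither comparison. It ran from 20.89 to 23.23 FPKM in controls, 16.97 to 22.21 with 15d-PGJ2 and 19.46 to 20.63 with 15d-PGJ2-PC. Its log2 fold changes were -0.12 (95% interval -0.32 to 0.08) and -0.11 (-0.30 to 0.09), which leave room for a modest change either way.

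**Figure D2:**
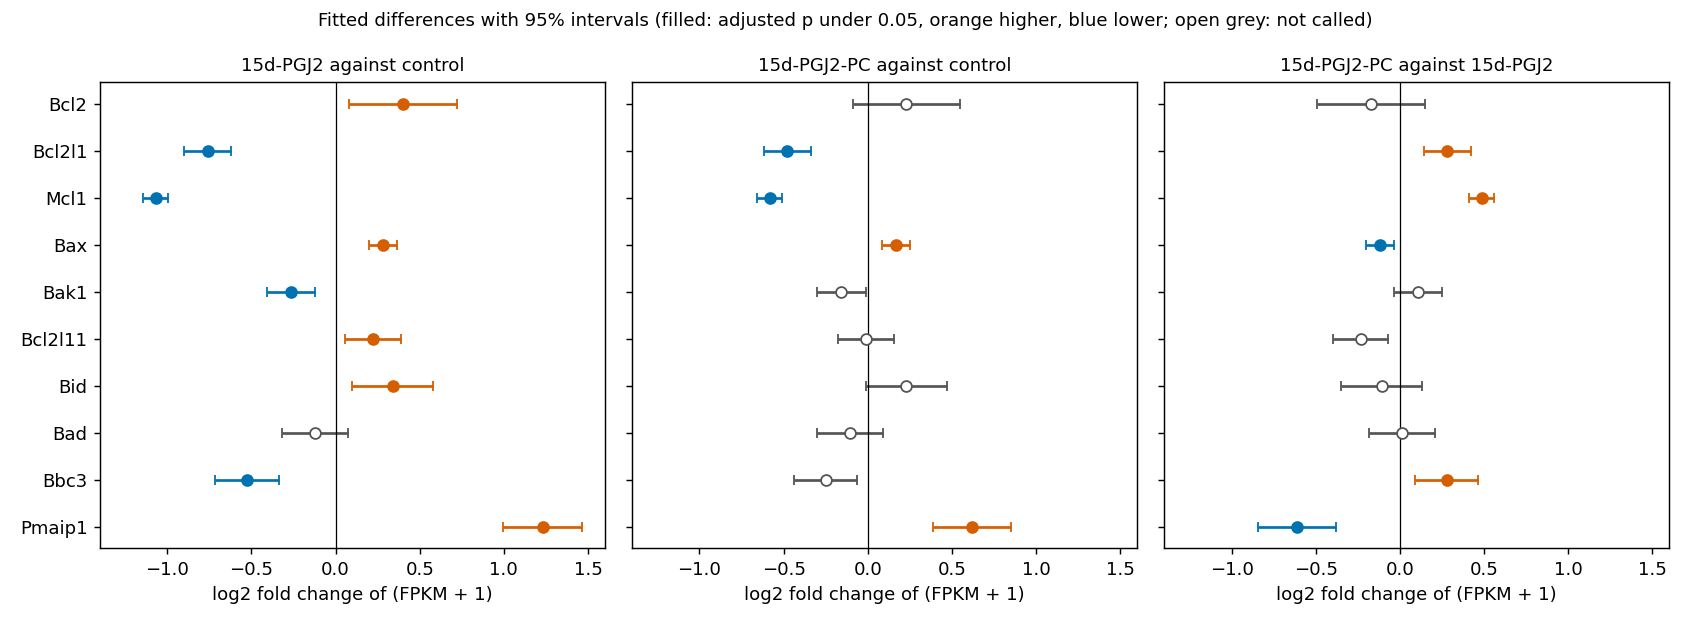
Log2 fold change of FPKM + 1 (horizontal axis) with its 95% interval for each of the 10 genes in the 3 comparisons; filled points passed at an adjusted p under 0.05 (orange higher, blue lower) and open points did not. Mcl1 at -1.07 and Pmaip1 at 1.23 are the far ends with 15d-PGJ2, and both lie nearer to 0 with 15d-PGJ2-PC.

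The compounds were compared directly at the same dose and time, as 1 pair over the 10 members. Levels with 15d-PGJ2-PC were higher than with 15d-PGJ2 for Mcl1 (log2 difference 0.49, 95% interval 0.41 to 0.56, adjusted p = 7.01e-06), for Bcl2l1 (0.28, 0.14 to 0.42, adjusted p = 0.00901) and for Bbc3 (0.28, 0.09 to 0.47, adjusted p = 0.0416). They were lower for Pmaip1 (-0.61, 95% interval -0.84 to -0.38, adjusted p = 0.00209) and Bax (-0.12, -0.20 to -0.03, adjusted p = 0.0499). So 5 of 10 members were called, where 20.6% of all genes were (12.3% higher and 8.3% lower), and 7 did not overlap between the compounds, against 37.3% of all genes. The 7 include Bcl2, which met the filter only through the treated libraries, so these shares too are only a description. Mcl1, Bcl2l1 and Pmaip1 passed under all 18 alternatives. Bax lost its call under 13 of them, with an adjusted p between 0.0165 and 0.165, and Bbc3 under 11, between 0.0113 and 0.131. Leaving out 1 library ended the Bax call for control replicates 1, 2 and 3, 15d-PGJ2 replicates 2 and 3 and 15d-PGJ2-PC replicates 1 and 3. It ended the Bbc3 call for control replicate 2, 15d-PGJ2 replicates 1 and 3 and 15d-PGJ2-PC replicates 1, 2 and 3. Bcl2l11 missed the threshold (-0.23, 95% interval -0.40 to -0.07, adjusted p = 0.0501) and passed under 4 alternatives, among them leaving out 15d-PGJ2-PC replicate 1 (0.00293). Bak1 (0.11, 95% interval -0.03 to 0.25), Bcl2 (-0.17, -0.49 to 0.15), Bid (-0.11, -0.35 to 0.13) and Bad (0.01, -0.18 to 0.21) did not pass, and their intervals do not show that the compounds act alike on them.

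Per transcript length, the order of the members changed with treatment. In controls Mcl1 (269 ± 2.94 FPKM, SD, n = 3) stood above Bax (199 ± 2.23), followed by Bak1 (51.0 ± 1.57), Bbc3 (34.8 ± 3.21), Bcl2l1 (30.1 ± 2.19), Bcl2l11 (25.5 ± 0.575), Bad (21.8 ± 1.27), Bid (20.4 ± 2.60), Pmaip1 (5.96 ± 0.195) and Bcl2 (0.957 ± 0.291). Only Bbc3 with Bcl2l1, and Bad with Bid, overlapped among neighbours in that order. With 15d-PGJ2, Bax (243 ± 5.91 FPKM) stood above Mcl1 (128 ± 3.33), Bak1 (42.3 ± 3.90), Bcl2l11 (29.9 ± 0.705), Bid (26.1 ± 3.70), Bbc3 (23.8 ± 2.63), Bad (20.0 ± 2.73), Bcl2l1 (17.3 ± 0.696), Pmaip1 (15.4 ± 1.14) and Bcl2 (1.57 ± 0.182). There Bid overlapped with both Bcl2l11 and Bbc3, and Bad with Bcl2l1. With 15d-PGJ2-PC the order began with Bax (224 ± 10.3 FPKM), Mcl1 (179 ± 5.0), Bak1 (45.7 ± 1.71) and Bbc3 (29.0 ± 1.17). No source used here gives the transcript lengths behind the FPKM, so levels of genes with several transcripts carry that uncertainty.

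Summed over roles, the survival sum was lower in the treated groups and the effector sum lowest in controls, though not every gene followed its sum. The 3 survival members summed to 297.5 to 302.6 FPKM in controls, 196.9 to 207 with 15d-PGJ2-PC and 143.6 to 151.1 with 15d-PGJ2, and Mcl1 made up 87.1% to 90.6% of that sum in every library. That sum leaves out other survival genes of the family. Among them, 4 Bcl2a1 genes, described below, summed to 494.4 to 529.8 FPKM in controls. Bcl2 ran opposite to the survival sum (means 0.957, 1.28 and 1.57 FPKM in the same order). The effectors summed to 249.4 to 250.6, 262.9 to 281 and 281.4 to 292.2 FPKM in that order. Bax made up most of the effector sum, and Bak1 ran the other way (means 51.0, 45.7 and 42.3 FPKM). The 5 BH3-only genes summed to 107.1 to 109.3, 104.3 to 115 and 112.5 to 117.6 FPKM, so the controls lay within the range of 15d-PGJ2-PC and below that of 15d-PGJ2. Within that last sum the make-up moved: Pmaip1 was 5.3% to 5.74% of it in controls and 11.9% to 14.3% with 15d-PGJ2, and Bbc3 28.6% to 33.9% and 18.9% to 23.3%.

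The ratio of Mcl1 to Pmaip1 FPKM was 45.4, 43.9 and 46.1 in controls, 16.0, 18.2 and 21.8 with 15d-PGJ2-PC, and 9.37, 7.93 and 7.80 with 15d-PGJ2. No groups overlapped. The ratio of Bax to Bcl2l1 was 6.22 to 7.25 in controls, 10.1 to 10.9 with 15d-PGJ2-PC and 13.1 to 14.7 with 15d-PGJ2. The often quoted ratio of Bax to Bcl2 overlapped between all groups (156 to 294, 162 to 205 and 138 to 175). Its divisor, Bcl2, was near the floor of the measurement, so the overlap does not show that this ratio was unchanged. These sums and ratios follow from the member values above and were not tested.

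**Figure D3:**
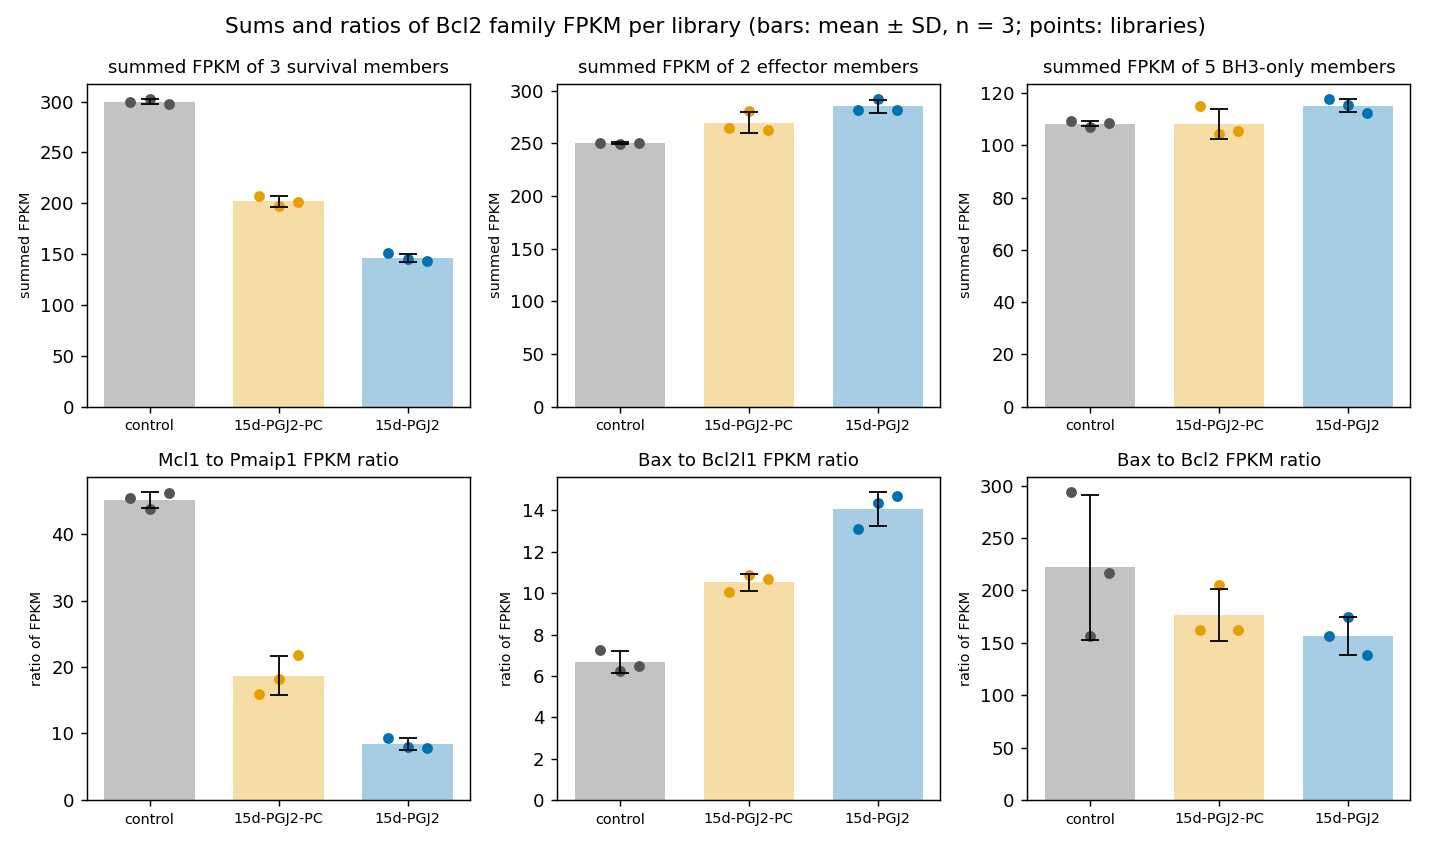
Summed FPKM by role (upper row) and ratios of FPKM between pairs of genes (lower row) in the control, 15d-PGJ2-PC and 15d-PGJ2 groups; bars are means with SD of 3 libraries and points are libraries. The sum of the 3 survival members falls from about 300 to about 147 FPKM and the ratio of Mcl1 to Pmaip1 from 45.1 to 8.37. The ratio of Bax to Bcl2 overlaps between groups, with Bcl2 near the floor of the measurement.

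Other genes of the family and of cell death were followed in 6 lists. Of all tested genes, 22.2% were called higher and 25% lower with 15d-PGJ2, and 13.8% and 14.1% with 15d-PGJ2-PC. The list counts were not tested against these shares. Of 16 other family genes, 11 were tested, and with 15d-PGJ2 2 rose, 4 fell and 5 did not pass (median log2 fold change -0.28, against -0.02 over all genes). The falls were led by the Bcl2a1 genes, which encode copies of the survival protein A1: Bcl2a1b went from 328 to 244 FPKM (log2 fold change -0.43, adjusted p = 0.000392) and Bcl2a1d from 107 to 63.1 (-0.76, adjusted p = 5.65e-05). These copies are nearly identical and may share reads, so a sum over 4 listed genes (Bcl2a1a, Bcl2a1b, Bcl2a1c and Bcl2a1d) is safer. That sum was 494.4 to 529.8 FPKM in controls, 424.9 to 467.3 with 15d-PGJ2-PC and 348.4 to 401.9 with 15d-PGJ2, without overlap. The risers were the BH3-only gene Bik (0.453 to 2.69 FPKM, log2 fold change 1.34, adjusted p = 2.24e-05) and Bnip3 (12.8 to 19.7 FPKM, 0.59, adjusted p = 0.000728), a mitochondrial protein of hypoxia and mitophagy. Bik was under 1 FPKM in all controls and met the filter through the treated libraries alone, so its call supports nothing further. Bcl2l12 did not pass (6.58 and 4.85 FPKM, log2 fold change -0.35, adjusted p = 0.0723), but did with the replicate block (0.0432) and without control replicate 3 (-0.55, adjusted p = 0.00173). With 15d-PGJ2-PC it was at 4.72 FPKM (-0.38, adjusted p = 0.0809) and passed without that control library (-0.58, adjusted p = 0.00255). With 15d-PGJ2-PC, Bik (1.5 FPKM) and Bnip3 (16.2) rose and Bcl2a1d (83.4) fell. The Bnip3 call was lost under 12 of 18 alternatives and that of Bcl2a1d under 2, without control replicate 2 or 15d-PGJ2-PC replicate 1. The count of 4 that fell with 15d-PGJ2 was 2 when control replicate 2 or 15d-PGJ2 replicate 3 was left out, and with no filter.

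Of 16 genes downstream at the mitochondrion and among caspases, 3 rose and 7 fell with 15d-PGJ2 (median -0.19). With that compound 47.2% of all tested genes were called in either direction, and with 15d-PGJ2-PC 27.8%. Apaf1, the scaffold on which cytochrome c activates caspase 9, went from 9.01 to 6.75 FPKM (-0.37, adjusted p = 0.00487). Diablo, whose product Smac blocks inhibitors of apoptosis, rose from 13.2 to 18.4 FPKM (0.45, adjusted p = 0.00215) and the channel gene Vdac3 from 64.8 to 79.8 (0.30, adjusted p = 0.00041), while Vdac2, whose product holds Bak at the mitochondrion, fell from 125 to 108 FPKM (-0.21, adjusted p = 0.00348). With 15d-PGJ2-PC 2 rose (Vdac3 and Diablo) and 1 fell (Apaf1), counts that ran from 0 to 2 each over the alternatives. Vdac2 was then at 126 FPKM (adjusted p = 0.93) and was higher than with 15d-PGJ2 (log2 difference 0.21, adjusted p = 0.00702). Of 8 genes of inhibitor of apoptosis proteins, 2 rose and 3 fell with 15d-PGJ2 (median -0.24): Birc6 (16.0 to 21.5 FPKM, adjusted p = 9.68e-05) and Naip2 (27.1 to 35.7, adjusted p = 0.000285) rose, and Xiap (17.0 to 13.8, adjusted p = 0.00545), Birc3 (57.6 to 48.3, adjusted p = 0.00622) and Naip6 (4.19 to 2.53, adjusted p = 0.00476) fell. Without control replicate 2, 5 of them fell. With 15d-PGJ2-PC, Birc6 (18.1 FPKM) and Naip2 (31.7) rose, a count of 0 to 2 over the alternatives, and none fell. At an adjusted p of 0.074, 0.107 and 0.316, Birc3, Xiap and Naip6 did not pass.

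Death receptor genes moved both ways. Of 14 tested, 5 rose and 5 fell with 15d-PGJ2 (median 0.0073), and 3 rose and 3 fell with 15d-PGJ2-PC (median 0.06). The shares of all tested genes called in either direction were 47.2% and 27.8%. Fas, a death receptor, rose from 10.3 to 22.1 FPKM with 15d-PGJ2 (log2 fold change 1.02, adjusted p = 4.95e-06) and to 18.6 with 15d-PGJ2-PC (0.79, adjusted p = 8.52e-05), and Mlkl, the executioner of necroptosis, from 15.2 to 30.6 and 27.8 FPKM (adjusted p = 1.82e-07 and 2.39e-06). Tnfsf10, the death ligand TRAIL, fell from 4.17 to 1.53 and 1.38 FPKM (adjusted p = 0.00017 and 0.000203), and the TNF receptor gene Tnfrsf1b from 204 to 145 and 181 FPKM (adjusted p = 9.75e-07 and 0.00478). Fadd, the adaptor that joins Fas to caspase 8, fell from 8.06 to 4.27 FPKM with 15d-PGJ2 (adjusted p = 2.06e-05) and was at 6.88 with 15d-PGJ2-PC (adjusted p = 0.105), a level above that with 15d-PGJ2 (adjusted p = 0.000668). Caspase 8 itself, Casp8, named after its value was seen, fell from 46.7 to 34.0 and 37.5 FPKM (adjusted p = 0.000255 and 0.00525).

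Of 19 tested regulators of the family, 6 rose and 3 fell with each compound (medians -0.0028 and 0.05). Of all tested genes, 47.2% and 27.8% were called, so with 15d-PGJ2 the list lay near the share of all genes. Atf4 and Ddit3, stress transcription factors known to act on BH3-only genes, rose from 190 to 260 and 272 FPKM and from 221 to 261 and 283 FPKM with 15d-PGJ2 and 15d-PGJ2-PC (adjusted p = 1.58e-06 and 2.25e-06 for Atf4, 0.000233 and 2.87e-05 for Ddit3). Usp9x, a deubiquitinase that stabilises Mcl-1 protein, rose from 23.9 to 30.1 and 27.5 FPKM (adjusted p = 0.000172 and 0.00821). Bag3, a co-chaperone that binds Bcl-2, rose from 14.5 to 78.1 and 40.1 FPKM (adjusted p = 1.02e-07 and 1.63e-05). Trp53, which encodes p53 and was named after its value was seen, was at 41.5, 44.6 and 41.2 FPKM in controls, with 15d-PGJ2 and with 15d-PGJ2-PC (adjusted p = 0.127 and 0.932), while Mdm2, which encodes the ligase that degrades p53, rose from 54.5 to 85.5 and 78.3 FPKM (adjusted p = 3.44e-05 and 0.000368).

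**Figure D4:**
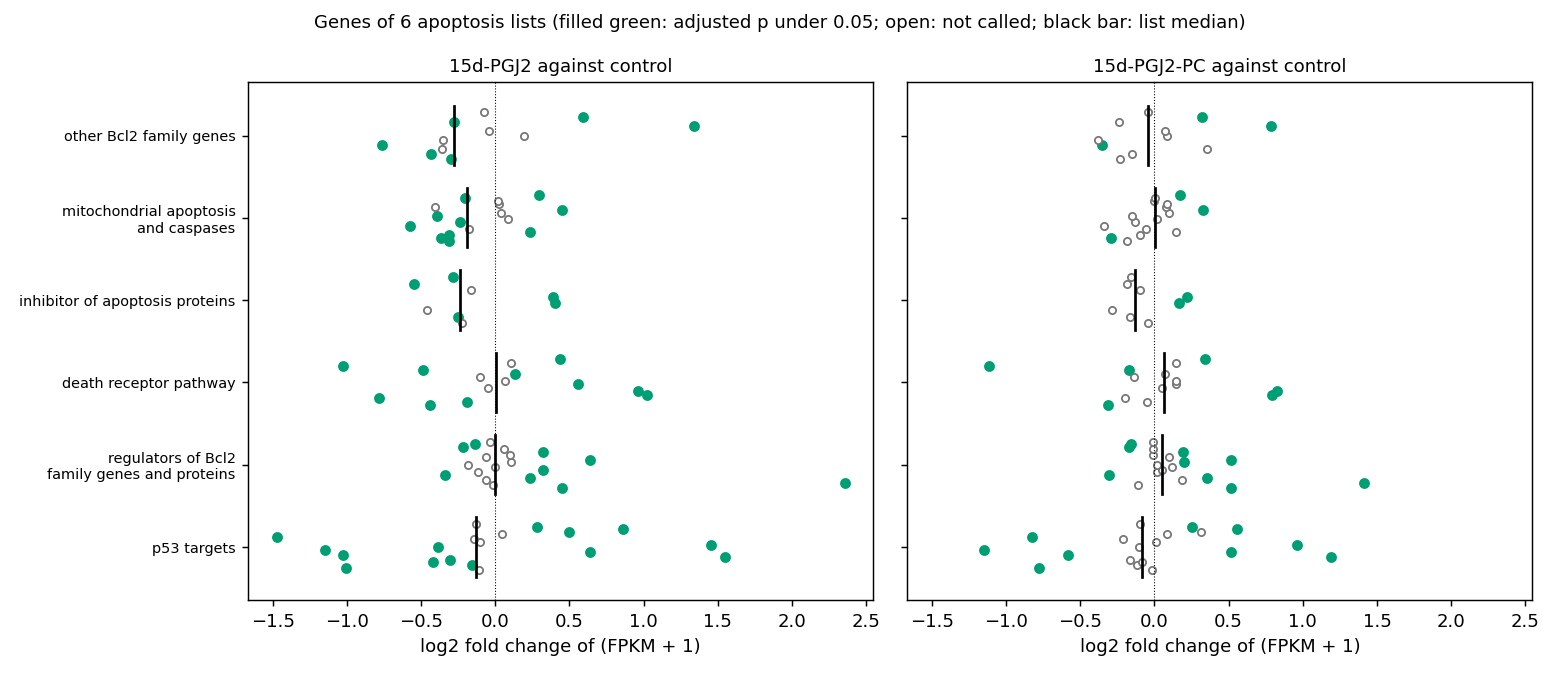
Log2 fold change of FPKM + 1 (horizontal axis) of each tested gene in 6 lists (rows), with 15d-PGJ2 on the left and 15d-PGJ2-PC on the right, both against the same controls; filled points passed at an adjusted p under 0.05 and the black bar is the list's median. Every list holds genes on both sides of 0, and the point farthest right is Bag3 at 2.36 and 1.42.

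For the member with the strongest difference among the 3 groups in each role, the genes with the most similar log2 values over the 9 libraries were found. Nearest to Mcl1 were Trim14 (Pearson r = 0.998; 87.6, 58.4 and 40.8 FPKM in controls, with 15d-PGJ2-PC and with 15d-PGJ2), Cyth4 (0.997; 262, 183 and 139 FPKM) and Tlr9 (0.996; 53.3, 33.9 and 21.8 FPKM). Nearest to Bax were Acot2 (0.985), Plcxd2 (0.984) and Eif3j1 (0.984), and nearest to Pmaip1 were Nup153 (0.993), Tacc2 (0.989) and the proteasome subunit gene Psma3 (0.989; 62.2, 72 and 80.8 FPKM). The 9 libraries fall into 3 groups, so these values describe mainly how the group means are spaced, and the best of 11309 genes is high by selection.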

How the data were processed

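Per the file headers, the authors deposited FPKM values, 1 column per library, for 18049 genes with Entrez numbers. Build mm10 and the aligner BWA are named in the submitters' processing notes; no source used here names the counting tool or any version. All 9 sample columns were used as deposited, with 2 decimals. Dates stood in place of 23 symbols, all restored by Entrez number. Coordinates are 1-based, from RefSeq GRCm38.p6, the assembly mm10 names.

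The test was limma 3.58.1 (R 4.3.3) with an intensity trend on log2(FPKM + 1), which understates changes of genes near 1 FPKM. It covered genes reaching 1 FPKM in 3 or more libraries, with 1 spread per gene over all 9 libraries. It was 2-sided and adjusted by Benjamini-Hochberg within each of 3 contrasts. A run on simulated data used independent normal noise, as the test assumes, so it checks the code and not how the test suits these data. Since the deposited FPKM are not counts, count models were not fitted. Reads per library came from the value of 1 read in single-transcript genes under 1500 bases listed at 0 in at least 5 libraries; 56.1% to 62.5% of their values lay within 0.1 of whole reads. Reads per member use GENCODE transcript lengths matched by RefSeq accession.

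The members, 6 lists and 13 marker lists were chosen with earlier results of these data known. Genes named are the 10 members, up to 4 genes of each list with the smallest p against control per compound, and 3 nearest genes by Pearson r per role; others are marked as chosen after their values were seen, and 1 gene that the rule names is not reported here. Marker lists other than those in the report are given under the other observations. The 18 alternatives include another pseudocount, filter, scaling and leaving out each library.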

Additional observations from a re-analysis of the deposited data

How the results depend on the processing

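Each result was recomputed under 18 alternatives (17 for the test of any difference). The signs of Mcl1, Bcl2l1, Pmaip1 and Bax against control, and of Bbc3 and Bak1 with 15d-PGJ2, and their calls held under all of them. Members called numbered 6 to 9 with 15d-PGJ2, 4 to 5 with 15d-PGJ2-PC, 3 to 4 between compounds and 5 to 7 in the test of any difference when 1 library was left out (main 9, 4, 5 and 7). Between compounds the count was 3 with no filter, with no trend, in the 6 libraries of the contrast, and when replicate 3 of either compound or the control library numbered 2 was left out. The cause was not tested. The 10 members against control and between compounds gave 537 recomputed values, of which 474 kept sign and side of the threshold, 44 lost a call, 12 gained one and 7 changed sign, all uncalled.

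Signs changed for Bad between compounds (-0.018 with quantile normalization, -0.0072 with median centring, -0.0947 to 0.0899 leaving out a library), Bcl2l11 with 15d-PGJ2-PC (-0.11 to 0.046 leaving out a library), Vdac2 with 15d-PGJ2-PC (-0.018 with median centring, -0.0399 to 0.0401 leaving out a library), and, leaving out a library between compounds, Bcl2l12 (-0.086 to 0.043) and Tnfsf10 (-0.15 to 0.016). The cause was not tested. Bcl2 was not tested at a filter of 5 FPKM. For the 6 lists the alternatives were added after seeing the data; 563 list counts stayed within 1.5 times and 85 did not. With median centring 7 p53 targets fell with 15d-PGJ2-PC.

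The titles number libraries 1 to 3 in each group without saying what a number marks. Deviations of same-numbered libraries correlated at -0.043 to 0.052 across genes and of others at -0.07 to 0.098, so the first range lay within the second. Whether libraries with the same number came from the same mice or dishes was not tested. With the replicate number as a block, 5272, 3041 and 2215 genes and 8, 5 and 4 members were called (15d-PGJ2, 15d-PGJ2-PC, between compounds), and 6 in the test of any difference. Scaling moved the median of all genes by under 0.1. At about 18 to 48 reads, Bcl2 is limited by depth.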

Other observations

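Genes that p53 is known to activate did not move as one. Of 19 tested, 6 rose and 8 fell with 15d-PGJ2 (median log2 fold change -0.13), and 5 rose and 4 fell with 15d-PGJ2-PC (median -0.08), while 22.2% and 25% of all genes, and 13.8% and 14.1%, were called higher and lower. The members Pmaip1 and Bbc3 are also known p53 targets, and with 15d-PGJ2 the first rose by 1.23 and the second fell by 0.53 on the log2 scale. Gdf15, a stress cytokine gene, rose from 117 to 344 FPKM with 15d-PGJ2 and to 268 with 15d-PGJ2-PC (adjusted p = 1.91e-08 and 5.96e-07), and Plk2, a stress-induced kinase gene, from 26.8 to 75.6 and 53 FPKM (adjusted p = 4.37e-08 and 3.89e-06). Trp53inp1 rose from 15.6 to 29.1 and 23.5 FPKM (adjusted p = 5.93e-07 and 4.64e-05). Sesn1, a stress-induced regulator of growth signalling, fell from 65.1 to 22.9 and 36.4 FPKM (adjusted p = 3.03e-08 and 7.8e-06), and Btg2, an antiproliferative gene, from 27.7 to 13.2 and 15.7 FPKM (adjusted p = 6.85e-07 and 1.61e-05). Named after their values were seen, Cdkn1a fell with 15d-PGJ2 (187 to 140 FPKM, adjusted p = 3.29e-06). Perp, which epidermis expresses, was at 1.14 to 1.52 FPKM in controls and 0 to 0.1 with each compound, beside the 6 of 7 skin markers that were at 0 in every treated library. It met the filter through the controls alone, so its place among the genes that fell is no support for a direction of the list.

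Markers of other cell types, as ranges of summed FPKM in controls, with 15d-PGJ2 and with 15d-PGJ2-PC, were as follows. The 8 neutrophil markers summed to 30.1 to 33.2, 16.3 to 20.2 and 22.6 to 28.2. The 5 B cell markers summed to 39.1 to 46.8, 14.0 to 17.7 and 24.6 to 29.1, with 1 of 5 at 1 FPKM or more and Pax5 at 0 in all control and 15d-PGJ2 libraries. The 5 dendritic markers summed to 31.4 to 32.7, 20.0 to 23.4 and 24.1 to 27.1. The 5 endothelial markers summed to 40.3 to 43.6, 27.6 to 34.2 and 36.3 to 41.6, and the 4 osteoclast markers to 191.9 to 208.5, 142.7 to 149.3 and 178.9 to 191. The 4 megakaryocyte markers summed to 48.1 to 51.9, 45.6 to 57.5 and 49.0 to 56.5, with 1 of 4 at 1 FPKM or more. The T cell (3 listed), NK cell (3) and mast cell (3) markers summed to at most 3.47, 0.21 and 0.22 FPKM. Their part in the member values was not tested.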
